A study of Mus musculus with 15 samples.

Results

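The respiratory chain of the inner mitochondrial membrane passes electrons from NADH and succinate to oxygen, and its subunits come from both the nuclear and the mitochondrial genome. Complex I oxidises NADH, complex II oxidises succinate, complex III reduces cytochrome c, complex IV reduces oxygen, and complex V makes ATP from the proton gradient that complexes I, III and IV build. The nuclear-encoded subunits were taken as the protein-coding genes whose symbol begins with Ndufa, Ndufb, Ndufc, Ndufs or Ndufv and a digit, with Uqcr, with Cox4 to Cox8 or with Atp5, and the genes Sdha to Sdhd. This gave 85 genes of 54495 listed, with 84 distinct names, since Atp5o stands under 2 identifiers. There were 37 genes of complex I, 4 of complex II, 8 of complex III, 18 of complex IV and 18 of complex V. Ndufa4 is counted here by its name, although its protein is now placed with complex IV.

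The libraries came from mouse embryonic fibroblasts, a primary connective tissue culture, taken at e13.5 and grown in 3% O2. RNA with a polyA tail was sequenced. All cells lacked mTR, the RNA of telomerase, and Wrn, the helicase gene of Werner syndrome, so these deletions are shared by all groups. TM cells carried p53 N236S on both alleles and DM cells wild-type p53. Telomeres shorten as mice lacking telomerase are intercrossed, and G1, G3 and G5 count those generations. The groups were G1TM (2 libraries), G1DM (2), G3TM (3), G3DM (2), G5TM (3) and G5DM (3). MEFs without the mTR and Wrn deletions are not analysed here. The labels do not say whether replicates are separate embryos or cultures. By sex-linked genes, G1DM, G5DM and G5TM each held libraries of both sexes, so replicates there were not all from the same embryo. For G1TM, G3TM and G3DM this stays unknown. Each p below measures the spread between these libraries, part of which may be technical.

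The 9 fibroblast markers had a summed FPKM (fragments per kilobase of gene, scaled to library size) of 2663 to 4719, carried mostly by Col1a1 and Vim. Dcn and Lum, which encode matrix proteoglycans, were lower in the later TM libraries (G3 and G5), at 0.838 to 1.85 against 6.74 to 29.2 elsewhere for Dcn, and at 0.914 to 1.85 against 5.64 to 34.8 for Lum. The reads recovered from the deposited values numbered 17448588 to 29571111 per library. In several genes the 6 later TM libraries (G3 and G5) were far from the other 9. Rpl12, a ribosomal protein gene, had an FPKM of 300.4 to 610 in those 6 and of 3.84 to 6.77 in the other 9. Rrp1 and mt-Rnr2 split in the same way, at 73.5 to 102 against 0.780 to 1.67 and at 44.7 to 73.6 against 1.48 to 3.76. Comparing genotypes in G3 or G5, or a later TM generation with G1TM, crosses that divide, so genotype or generation and whatever sets those libraries apart cannot be told apart there. TM against DM in G1, and all comparisons among DM generations, lie within the 9. Y-linked genes were read in 7 libraries and Xist in 8, and in G3 the sex of the embryo and the genotype cannot be told apart, since both G3DM libraries had Xist and the 3 G3TM libraries had Y-linked genes. Both G1TM libraries had Xist too, so sex and generation cannot be told apart between G3TM and G1TM.

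Of the 85 genes, 80 reached an FPKM of 1 in 2 or more of the 15 libraries and were tested among 13562 genes. All genes of complexes I, II and III passed, with 14 of complex IV and 17 of complex V. Those left out were Cox6a2, Cox7b2, Cox8b and Cox8c, isoforms of complex IV with restricted expression, and the second Atp5o identifier. Ndufb2 passed only through high values in G3TM and G5TM, so its difference follows in part from the filter. Differences are given as log2 with the standard error (SE), between group means of log2(FPKM + 1), which understates changes of low genes. A gene was called when limma's Benjamini-Hochberg adjusted p over all tested genes was under 0.05.

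Promoter sequences of 5 members, chosen after their values were seen, show the range of behaviours described below. Cox6b2, the testis-type subunit of complex IV, was lower in TM. Atp5k, subunit e of the ATP synthase, Ndufa3, an accessory subunit of complex I, and Uqcr11, the smallest subunit of complex III, had the largest differences of their complexes in G3 or G5. Atp5f1, subunit b of the ATP synthase, did not pass the test in any comparison of TM with DM. The sequences are from RefSeq (GRCm38.p6), 5′ to 3′ on the gene's strand, and run from 170 bases before the annotated start to 30 bases after it. Capitals mark GCGCATG (a core of the palindrome bound by NRF1), CCGGAAG (an ETS core, of the kind bound by GABPA) and AAGATGG (a YY1 core), on either strand. Cox6b2 lies at chr7:4753065-4753264 on the minus strand, Atp5k at chr5:108434370-108434569 on the minus strand, Ndufa3 at chr7:3617203-3617402 on the plus strand, Uqcr11 at chr10:80406792-80406991 on the minus strand and Atp5f1 at chr3:105959234-105959433 on the minus strand.
Cox6b2: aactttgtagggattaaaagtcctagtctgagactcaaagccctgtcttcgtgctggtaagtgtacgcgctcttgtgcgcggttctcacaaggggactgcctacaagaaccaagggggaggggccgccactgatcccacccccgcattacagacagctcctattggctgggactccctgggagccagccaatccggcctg
Atp5k: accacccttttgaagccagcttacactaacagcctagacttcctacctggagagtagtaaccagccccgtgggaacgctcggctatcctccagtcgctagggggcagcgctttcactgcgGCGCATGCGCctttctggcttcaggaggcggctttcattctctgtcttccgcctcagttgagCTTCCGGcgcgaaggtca
Ndufa3: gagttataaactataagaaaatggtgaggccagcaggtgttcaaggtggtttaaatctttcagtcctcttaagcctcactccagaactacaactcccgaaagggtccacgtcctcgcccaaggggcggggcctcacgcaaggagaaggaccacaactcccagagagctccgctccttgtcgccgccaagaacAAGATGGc
Uqcr11: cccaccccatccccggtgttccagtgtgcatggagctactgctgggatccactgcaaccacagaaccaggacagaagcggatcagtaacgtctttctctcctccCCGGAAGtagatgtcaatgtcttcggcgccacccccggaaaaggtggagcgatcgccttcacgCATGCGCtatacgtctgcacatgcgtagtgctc
Atp5f1: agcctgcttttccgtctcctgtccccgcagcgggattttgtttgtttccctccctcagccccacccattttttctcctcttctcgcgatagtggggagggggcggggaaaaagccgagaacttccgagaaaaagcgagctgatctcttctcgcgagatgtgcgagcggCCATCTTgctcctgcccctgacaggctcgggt
NRF1 and GABPA are known as activators of nuclear respiratory genes. A full promoter window of 250 bases before to 50 after the start was found for 68 of the 84 names. The NRF1 core stood in 13 of these 68, or 19.1%, against 4.41% of 27025 genes. The ETS core stood in 23.5% of members and 9.93% of genes, and the YY1 core in 16.2% and 7.28%. GGGCGG, the Sp1 box, stood in 41.2% and 38.2%, and CCAAT in 44.1% and 41.1%. TTTGAA, the cell cycle homology region, stood in 10.3% of members and 20.2% of genes. Letters were matched on both strands, the motifs do not contain one another, and a match is a description and not a binding site. The Cox6b2 stretch held none of the capitalised motifs, the Atp5k stretch held the NRF1 core on both strands and an ETS core, the Uqcr11 stretch an ETS and an NRF1 core, and the Ndufa3 and Atp5f1 stretches a YY1 core each.

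On the FPKM scale, which is per length of gene, the mean level over 15 libraries ran from 0.833 for Cox7a1 to 509 for Cox6a1 among tested members, and 72 of 80 had a mean of at least 10. After Cox6a1, the liver-type partner of a muscle isoform, the highest were the catalytic F1 subunits Atp5b (365) and Atp5a1 (306), then Cox8a (285) and Cox4i1 (226). FPKM here divides by the table's gene length, which is 8086 bases for Ndufs1 and 616 for Atp5k, so levels between genes carry that difference.

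Complex I had the lowest median level of the 5 complexes in each of the 15 libraries. Its 37 tested genes had a median FPKM of 41.3 to 68.9 in the 6 G3TM and G5TM libraries and of 11.9 to 22.1 in the other 9. Complex II had medians of 55.2 to 81.7 against 30.5 to 49.5, and complex III of 60.6 to 111 against 28.7 to 52.1. Complex IV had 58.7 to 92.4 against 25.1 to 47.7, and complex V 67.4 to 122 against 22.0 to 39.6. In no complex did the 6 libraries overlap the other 9. Summed over the 85 genes, FPKM was 5676 to 9989 in the 6 and 2155 to 4518 in the 9. In bulk RNA, a different share of cells of one kind and a different amount of RNA per cell cannot be told apart.

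**Figure D1:**
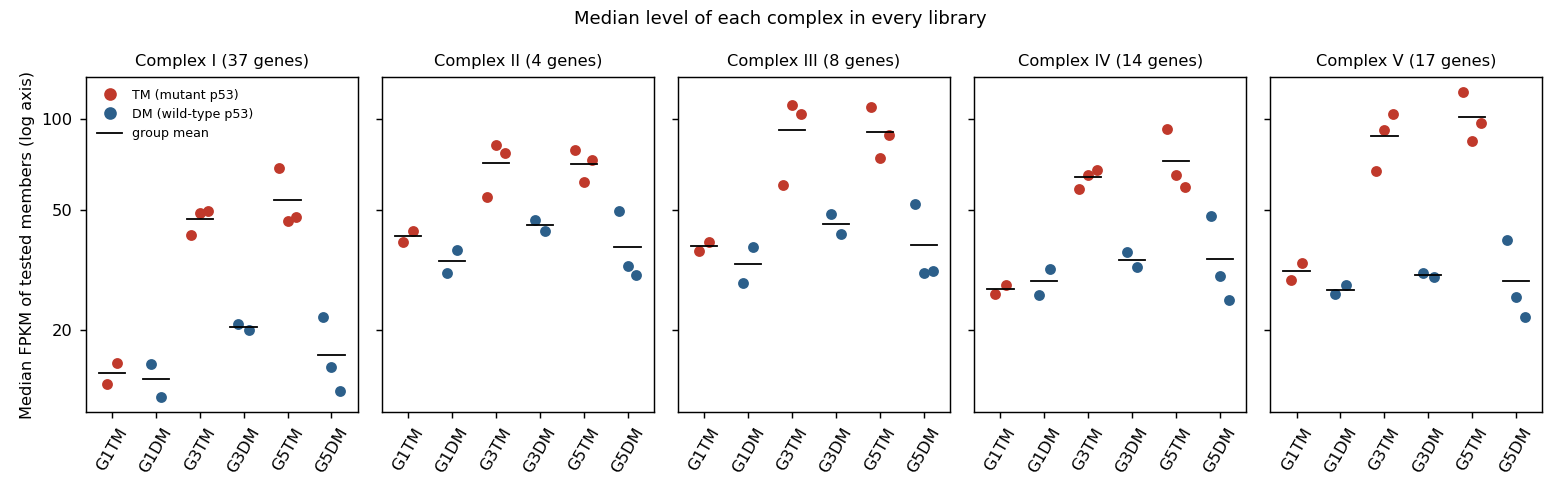
Median FPKM of the tested members of each complex (log axis) in every library. Points are libraries and bars are group means, with TM in red and DM in blue. In complex I the G3TM and G5TM libraries lie at 41.3 to 68.9, above all 9 others at 11.9 to 22.1.

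In G1, where both genotypes lie among the 9 similar libraries, the subunits showed little difference between TM and DM. Their median difference was 0.04 log2, against 0.02 for all tested genes. None was called higher (0.361% of all genes were) and 1 was called lower (0.811% of all genes were). The one called was Cox6b2. Ndufa1, an X-linked accessory subunit of complex I, was the other member at an unadjusted p under 0.05 (2 in all), with a log2 difference of -0.55 and a limma adjusted p of 0.312. A count-based fit (limma voom on the recovered reads) called 0 higher and 1 lower. Both TM libraries lay above both DM libraries for 21 of 80 members (26.4% of all genes) and below for 13 (23.0% of all genes). By complex, the median difference was 0.08 for I, 0.25 for II, 0.16 for III, -0.08 for IV and 0.04 for V. The median half-width of the 95% intervals was 0.71 log2. Atp5b, the catalytic beta subunit of the ATP synthase, had an interval of -0.40 to 1.24 around a difference of 0.42.

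Cox6b2 was lower in TM in all 3 generations. Its FPKM was 0.483 and 0.243 in the G1TM libraries, against 6.50 and 3.30 in the G1DM libraries. The 3 G3TM libraries had 1.24, 1.66 and 1.31, against 8.47 and 7.71 in G3DM. In G5 the values were 2.43, 1.39 and 2.10 in TM, against 14.5, 7.50 and 8.40 in DM. The highest of the 8 TM libraries lay below the lowest of the 7 DM libraries, and Cox6b2 was the 1 member of 80 for which this held (3.81% of all genes). The read numbers behind these values were 8 to 13 in G1TM against 85 to 169 in G1DM, 22 to 36 in G3TM against 165 to 180 in G3DM, and 28 to 44 in G5TM against 180 to 289 in G5DM. The log2 difference was -2.06 ± 0.30 (SE) in G1, -1.93 ± 0.28 in G3 and -1.87 ± 0.25 in G5, with limma adjusted p of 0.00529, 0.000375 and 9.1e-05. In G1 it was -3.41 with a pseudocount of 0.1 and -3.71 with voom. The G1 call was lost without G1DM replicate 1, G1TM replicate 1 or G1TM replicate 2, and when only the 2 G1 groups were fitted, with an adjusted p of up to 0.0964. In G3 and G5 the call held in each of the 22 alternatives tried. Among libraries with Xist, the G1TM values of 0.483 and 0.243 stood against 3.30 in G1DM replicate 2, and the G5TM values of 1.39 and 2.10 against 14.5 in G5DM replicate 1.

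COX6B2 is known in mammals as the isoform of testis, in place of the broadly expressed Cox6b1. Male germ cell markers (Dazl, Ddx4, Sycp3 and Prm1) summed to an FPKM of 0.0758 to 0.677 over all libraries. Cox6b2 lies on chromosome 7 at 4751792 to 4753094 on the minus strand in the table's coordinates, overlaps no other annotated gene there, and shares no run of 50 bases with another gene's transcripts. Within TM its level was higher in G5 than in G1, by 1.11 log2 (limma adjusted p = 0.00585), a call lost without G1TM replicate 2 and when trends on GC content and length were removed, with an adjusted p of up to 0.514. Its partner Cox6b1 went the other way in G5, with 306, 193 and 211 FPKM in TM, against 130, 65.9 and 58.0 in DM (1.54 log2, limma adjusted p = 0.000959).

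In G3, 42 of the 80 members were called higher in TM (18.0% of all genes were) and 2 lower (13.9% of all genes were). In G5, 63 were called higher (30.3% of all genes were) and 1 lower (28.4% of all genes were). The members' median log2 difference was 0.97 in G3 and 1.32 in G5, against 0.01 and 0.02 for all tested genes. After quantile normalization the members' medians were 0.65 and 0.83. Both comparisons cross the divide between the 6 libraries and the 9, and their part in the result cannot be told apart. For 50 of 80 members, all 6 G3TM and G5TM libraries lay above all other 9 (17.1% of all genes), and for none did they lie below (9.63% of all genes). The 50 include Ndufb2, which passed the filter only through its values in G3TM and G5TM. Within generations, the TM libraries lay above the DM libraries for 60 members in G3 (31.6% of all genes) and 56 in G5 (29.6% of all genes), and below for 3 in G3 (28.2% of all genes) and 2 in G5 (28.3% of all genes). The 44 calls of G3 in either direction became 28 without G3DM replicate 1 and 23 without G3DM replicate 2.

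Markers of several cell types were called over the same comparisons. Their counts, here and in the next paragraph, are read against the shares of all genes. These were 18.0% higher and 13.9% lower in G3, and 30.3% and 28.4% in G5. For G5TM against G1TM they were 26.0% and 23.5%. Of the 9 fibroblast markers, 2 were called lower in TM in G3 and 4 in G5, and 6 were lower in G5TM than in G1TM, with 0 higher in any of these. Of 7 tested skeletal muscle markers, 4 were called higher and 1 lower in TM in G3 (median 1.94 log2). In G5, 1 was called higher and 1 lower, both under the shares of all genes. Myog and Myod1, which drive muscle differentiation, had 61.6 and 21.8 FPKM in G3TM replicate 2 and 15.7 and 5.73 in G3TM replicate 3. In G3TM replicate 1 they had 0.737 and 0.184, and in the DM libraries at most 1.04 and 0.347. The sum of all 8 muscle markers overlapped, at 42.3 to 331 in G3TM against 206 to 341 in G3DM, since Acta1 and Des were high in G3DM.

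Of 4 tested neural markers, 2 were called higher in TM in both G3 and G5. Their sum followed Tubb3, a neuronal tubulin, which had 79.8, 241 and 135 FPKM in G3TM against 39.3 and 22.7 in G3DM, and 110, 77.1 and 109 in G5TM against 31.0, 22.3 and 12.8 in G5DM. Sox2 had 2.13, 2.48 and 3.30 FPKM in G3TM against 0.431 and 1.66 in G3DM. In G5, Sox2 had 1.88, 1.61 and 3.18 in TM against 0.242, 0.112 and 0.135 in DM. Stmn2 had 12.55, 9.55 and 10.3 in G3TM against 6.25 and 5.25 in G3DM, and it overlapped in G5. Nes overlapped between TM and DM in both generations. Map2, which did not pass the filter, was lower in G5TM, at 0.175 to 0.271, than in G5DM, at 0.284 to 0.752. Of the 4 epithelial markers, Krt8 and Krt18 were tested and both were called higher in TM in G5, while Epcam and Cdh1 stayed under 0.65 in every library. The part of these cell types in the subunit differences was not tested.

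After quantile normalization, 53 members were called higher and 3 lower in G5 (28.8% and 28.9% of all genes). Uqcrc1 fell to 0.25 log2 there and to 0.03 after trends on GC content and length were removed, and lost its call in both. Calls lost by other named members are given below. Several called G5 differences were smaller after quantile normalization but still called. Sdhd became 0.34, Uqcrfs1 0.47, Cox7a2 0.68, Cox6b1 0.80, Sdhb 0.81, Cox4i1 0.84, Atp5g2 1.02, Cox5b 1.15 and Cox6a1 1.32. Removing trends on GC content and length gave 0.70 for Cox4i1, 0.71 for Sdhb and Cox7a2, 0.81 for Atp5g2, 0.93 for Ndufv1, 0.94 for Cox5b, 1.22 for Cox6a1 and 1.78 for Uqcr11, also still called. In G3, quantile normalization gave 0.73 for Sdhb and 0.80 for Cox4i1, and trend removal gave 0.75 for Cox4i1, 0.89 for Cox5b and 1.22 for Cox6a1.

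**Figure D2:**
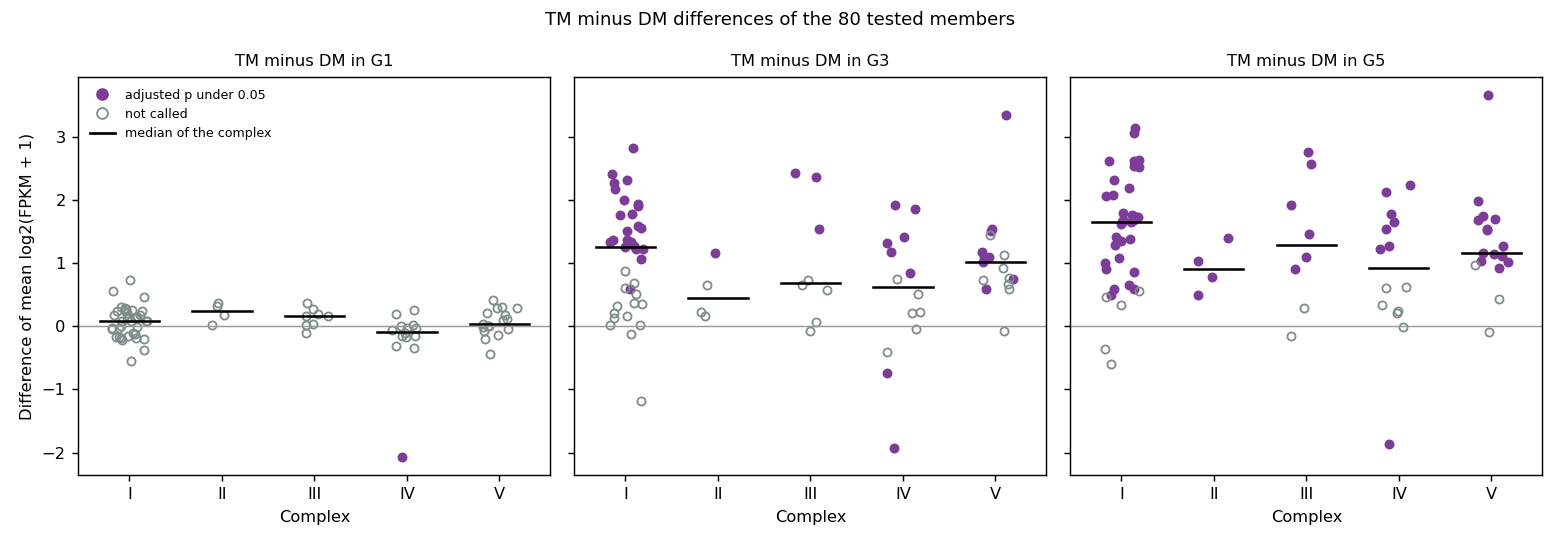
TM minus DM differences of log2(FPKM + 1) for the 80 tested members by complex, in G1, G3 and G5. Filled points were called at a limma adjusted p under 0.05 and bars are medians. The medians for complex I are 0.08 in G1, 1.25 in G3 and 1.65 in G5, and the lowest point of complex IV in each generation is Cox6b2.

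Complex I had 23 of 37 members called higher in G3, with a median of 1.25 log2, and 32 of 37 in G5, with a median of 1.65. None was called lower. Counts by complex, here and below, are read against the shares of all genes. These were 18.0% higher and 13.9% lower in G3, and 30.3% and 28.4% in G5. The 7 core subunits that carry the flavin and the iron-sulfur clusters, conserved from bacteria, had 5 called higher in G5 with a median of 1.38, and the other 30 had 27 called with a median of 1.67. Among the core, Ndufv1, which binds the flavin, had 82.8, 55.7 and 77.3 FPKM in G5TM, against 37.0, 16.1 and 16.5 in G5DM (1.68 ± 0.31, limma adjusted p = 0.000714). The groups did not overlap.

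Ndufs1, the largest core subunit, carrying iron-sulfur clusters, did not follow the others. Its FPKM was 9.32 and 8.57 in G1TM against 7.57 and 9.36 in G1DM, 7.77, 5.95 and 5.88 in G3TM against 6.10 and 6.65 in G3DM, and 7.36, 6.34 and 6.03 in G5TM against 7.76, 9.19 and 9.10 in G5DM. All G5TM libraries lay below all G5DM libraries, at a log2 difference of -0.35 that missed the threshold (limma adjusted p = 0.0568). Reads at Ndufs1 cannot be told apart from those of Eef1b2 and Ino80dos, which overlap it on the other strand, because the counting is not stated to use strand. Ndufv2, the partner of Ndufv1, had a difference of 0.46 in G5 (limma adjusted p = 0.13).

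The largest differences of complex I were in small accessory subunits. Ndufa3 had 119, 83.4 and 87.1 FPKM in G5TM against 13.1, 9.67 and 7.58 in G5DM, and 64.4, 90.1 and 88.4 in G3TM against 10.4 and 10.5 in G3DM. In G1 it had 6.24 and 6.91 in TM and 8.18 and 6.82 in DM. Its log2 difference was 3.15 ± 0.21 in G5 and 2.82 ± 0.24 in G3 (limma adjusted p = 7.52e-07 and 8.34e-06), and the groups were far from overlapping. Ndufa3 overlaps Tfpt on the other strand, so a part of its reads may belong to that gene. Ndufa2 differed by 3.06 ± 0.31 in G5, at 264, 201 and 147 in TM against 41.8, 19.3 and 14.7 in DM (limma adjusted p = 1.4e-05), and it overlaps Tmco6 in the same manner. Ndufa1 had 77.8, 79.4 and 79.0 FPKM in G3TM against 12.3 and 15.7 in G3DM (2.42 ± 0.21, limma adjusted p = 8.71e-06), and it is X-linked in a generation where sex and genotype coincide. In G5, where sexes are mixed, it differed by 2.62 ± 0.18 (limma adjusted p = 9.97e-07).

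Ndufa5, an accessory subunit of the peripheral arm, was the 1 member of 80 whose 8 TM libraries all lay above all 7 DM libraries (3.86% of all genes). It had 8.46 and 8.90 FPKM in G1TM against 8.31 and 6.46 in G1DM, a difference of 0.22 (limma adjusted p = 0.888). In G3TM it had 49.0, 25.1 and 28.7 against 7.43 and 8.33 in G3DM, and in G5TM 64.3, 45.5 and 36.8 against 7.95, 6.85 and 7.27 in G5DM. Its differences were 1.93 ± 0.27 and 2.54 ± 0.24 log2 (limma adjusted p = 0.000316 and 9.82e-06).

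Ndufa12, another accessory subunit, varied widely within groups. Its FPKM was 2.83 and 8.56 in G1TM against 2.45 and 2.88 in G1DM, and 12.4, 21.6 and 18.4 in G3TM against 17.0 and 10.0 in G3DM. In G5 it was 18.7, 13.9 and 14.6 in TM against 12.9, 2.53 and 4.56 in DM. Its G5 difference of 1.36 (limma adjusted p = 0.0177) lost the call without G5DM replicate 2, G5DM replicate 3 or G5TM replicate 1, with no filter, and after trends on GC content and length were removed, with an adjusted p of up to 0.0944. Ndufa4 had 92.8, 71.9 and 47.6 FPKM in G5TM against 50.3, 32.2 and 28.3 in G5DM, which overlap (0.91, limma adjusted p = 0.00921), and its difference after quantile normalization was 0.30 and not called. Ndufa4l2, its paralogue and a known target of hypoxia-inducible factor, ranged from 8.28 to 37.5 in G3TM and G5TM together, with 44.7 and 52.2 in G1TM. The DM libraries had 88.0 and 11.5 in G1, 75.1 and 29.8 in G3, and 16.5, 35.0 and 22.2 in G5. Its differences of 0.56, -1.18 and -0.59 did not pass the test in any generation.

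**Figure D3:**
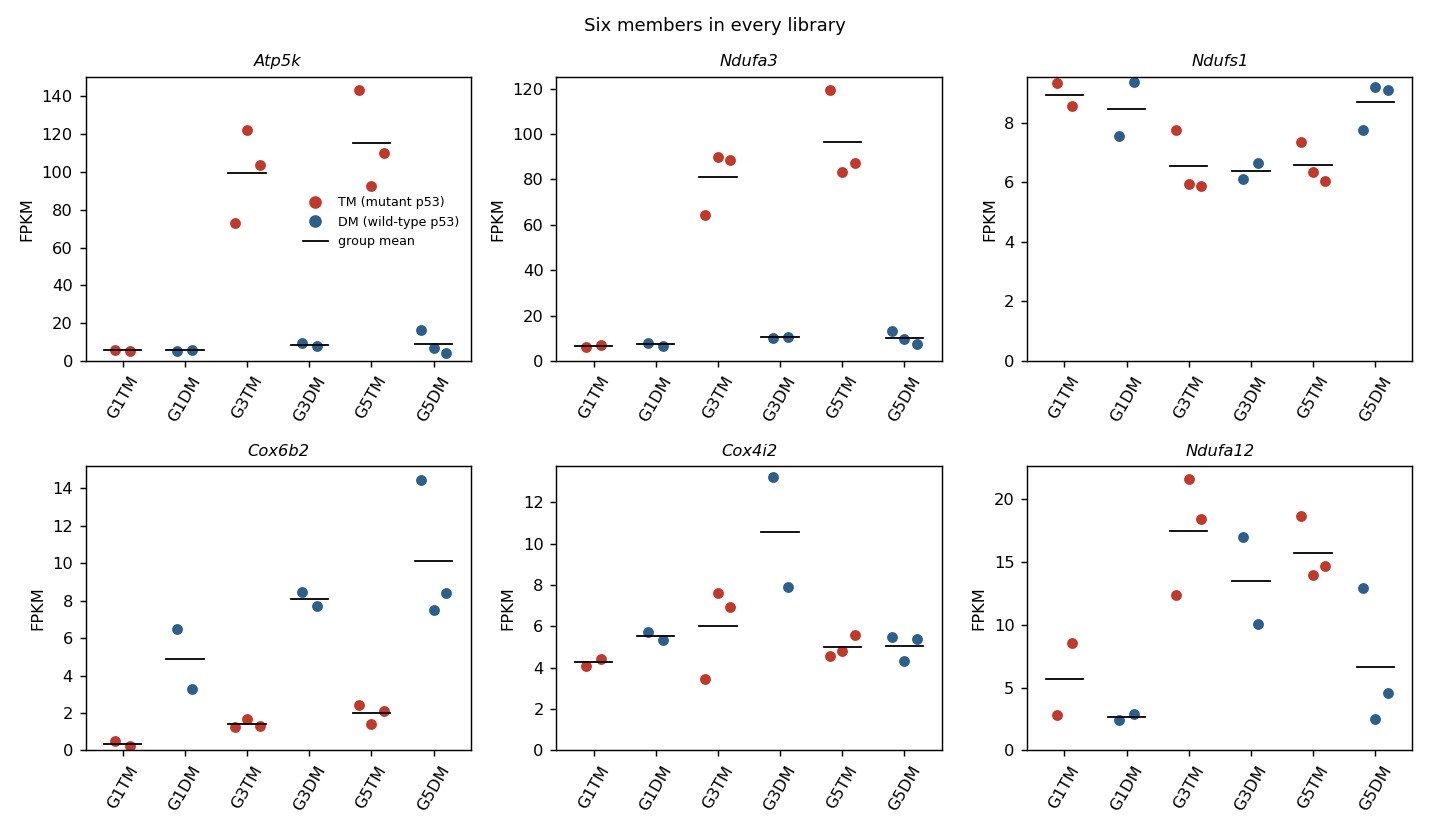
FPKM of 6 members in every library (linear axes from 0), with TM in red, DM in blue and bars for group means. Atp5k and Ndufa3 are high in the G3TM and G5TM libraries, Cox6b2 is at or below 2.43 in all TM libraries, and Ndufs1, Cox4i2 and Ndufa12 show other patterns.

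Complex II, which also serves the citric acid cycle and has no mitochondrially encoded subunit, had the smallest median differences, 0.44 in G3 and 0.90 in G5. All 4 genes were called higher in G5 and 1, Sdhb, in G3. Sdhb, the iron-sulfur subunit, had 87.6, 57.3 and 82.5 FPKM in G5TM against 46.7, 21.9 and 20.8 in G5DM (1.39 ± 0.33, limma adjusted p = 0.00307). In G3 it had 47.3, 100 and 95.4 in TM against 36.8 and 30.8 in DM (1.17 ± 0.37, limma adjusted p = 0.0271), and the call was lost without either G3DM library, G3TM replicate 2 or G3TM replicate 3, with no filter and with only these groups fitted, at an adjusted p of up to 0.175. Sdha, the flavoprotein, had 69.8, 66.2 and 63.2 in G5TM against 52.3, 45.1 and 44.0 in G5DM. Those groups did not overlap, but the difference of 0.49 ± 0.14 (limma adjusted p = 0.0114) was -0.18 after quantile normalization and no longer called, and the call was also lost with only the G5 groups fitted. Sdhd, a membrane anchor, differed by 1.03 in G5 (limma adjusted p = 0.00264).

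Complex III had 3 of 8 members called higher in G3 (median 0.69) and 6 of 8 in G5 (median 1.28). Uqcr11 had 245, 175 and 172 FPKM in G5TM against 54.1, 23.4 and 16.6 in G5DM, a difference of 2.77 ± 0.34 (limma adjusted p = 5.49e-05). In G3 it differed by 2.36 ± 0.38, at 133, 216 and 200 in TM against 35.3 and 32.8 in DM. Uqcrq, another small subunit, differed by 2.58 in G5 and 2.42 in G3 (limma adjusted p = 8.15e-05 and 0.000605). The Rieske iron-sulfur protein Uqcrfs1 had 96.8, 72.5 and 75.8 in G5TM against 56.6, 29.9 and 30.7 in G5DM (1.10, limma adjusted p = 0.0032). Uqcrc1, a core protein, had 98.7, 62.8 and 101 against 76.3, 35.0 and 33.9, which overlap, and its call (0.91, limma adjusted p = 0.0494) was lost in 16 of 23 alternatives, including leaving out any of G5DM replicate 2, G5DM replicate 3, G5TM replicate 1 and G5TM replicate 3, with an adjusted p of up to 0.933. Uqcrb and Uqcrc2 had differences of -0.15 and 0.30 in G5 that did not pass.

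Complex IV held members called in both directions, and all those called lower in G3 or G5. It had 6 of 14 called higher and 2 lower in G3 (median 0.63), against 18.0% and 13.9% of all genes. The share called lower in G3 was thus near that of all genes. In G5, 7 were higher and 1 lower (median 0.92), against 30.3% and 28.4% of all genes. Cox6a1 had 1175, 829 and 1009 FPKM in G5TM against 334, 188 and 146 in G5DM, and 578, 1199 and 1077 in G3TM against 272 and 229 in G3DM. Its differences were 2.24 ± 0.32 and 1.85 ± 0.36 (limma adjusted p = 0.000153 and 0.00246). Cox7c, a short transmembrane subunit, differed by 2.12 in G5 and 1.91 in G3 (limma adjusted p = 0.000114 and 0.00113). Cox5b, on the matrix face, differed by 1.77 in G5 and 1.41 in G3 (limma adjusted p = 0.000216 and 0.00421), whereas Cox5a, its neighbour there, had 0.61 and 0.23 and did not pass. Cox7a2 had 77.6, 53.9 and 47.3 in G5TM against 37.2, 21.7 and 18.0 in G5DM (1.22, limma adjusted p = 0.00215). Cox8a, with 496, 334 and 327 against 353, 236 and 180, did not pass in either generation.

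The isoforms of subunit 4 took different courses. Cox4i1, the broad isoform, had 451, 302 and 399 FPKM in G5TM against 215, 98.7 and 81.6 in G5DM (1.65 ± 0.37, limma adjusted p = 0.00222). In G3 its difference was 1.32 (limma adjusted p = 0.0259), lost without either G3DM library, G3TM replicate 2 or G3TM replicate 3, with no filter and with only the G3 groups fitted, at an adjusted p of up to 0.174. Cox4i2, the oxygen-responsive isoform known from lung, had 3.47, 7.59 and 6.93 in G3TM against 13.2 and 7.89 in G3DM, a difference of -0.74 ± 0.26 (limma adjusted p = 0.0458) that was lost in 17 of 23 alternatives, 12 of which left out 1 library, with an adjusted p of up to 0.39. In G5 it had 4.59, 4.83 and 5.59 in TM against 5.48, 4.34 and 5.38 in DM, which overlap. The muscle-type isoforms were low throughout. Cox7a1 lay between 0.322 and 1.78, and of the untested ones Cox6a2 reached at most 1.10 and Cox8b 1.32. Of the testis-type isoforms other than Cox6b2, Cox7b2 reached 0.121 and Cox8c was listed at 0 in every library.

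Complex V had 9 of 17 called higher in G3 (median 1.02) and 14 of 17 in G5 (median 1.16). Atp5k, which helps the enzyme form dimers in the membrane, had the largest difference of all members. It had 143, 92.7 and 110 FPKM in G5TM against 16.6, 6.75 and 4.45 in G5DM, and 72.8, 122 and 104 in G3TM against 9.31 and 8.07 in G3DM. In G1 its values were 6.01 and 5.30 in TM and 5.33 and 6.07 in DM. The log2 difference was 3.66 ± 0.34 in G5 and 3.35 ± 0.38 in G3 (limma adjusted p = 8.68e-06 and 8.77e-05), and -0.01 in G1. The catalytic head changed less. Atp5a1 had 450, 332 and 466 in G5TM against 295, 158 and 148 in G5DM (1.11, limma adjusted p = 0.00635), Atp5b differed by 1.14 (limma adjusted p = 0.00729), and both lost the call after quantile normalization, at 0.21 and 0.26. Atp5c1, the central stalk, differed by 0.92 (limma adjusted p = 0.0199) and lost its call after quantile normalization (0.21, adjusted p = 0.298), with only the G5 groups fitted, and without G5DM replicate 2, G5DM replicate 3, G5TM replicate 1 or G5TM replicate 3.

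Atp5g1, Atp5g2 and Atp5g3 encode the same mature subunit c of the rotor ring. They differed by 1.54, 1.70 and 1.99 in G5 (limma adjusted p = 0.000895, 0.000288 and 0.000397). In G5TM libraries Atp5g1 had 39.5, 25.0 and 31.5 FPKM against 18.2, 8.27 and 6.80 in G5DM. Atp5g2 had 169, 116 and 156 against 67.8, 35.9 and 34.8, and Atp5g3 had 179, 93.8 and 138 against 58.0, 25.7 and 23.1. For each of the 3 genes the TM values lay above the DM values, and Atp5g1 stayed the lowest of the 3 in every library. Atp5g3 differed by 1.55 in G3 (limma adjusted p = 0.00786), a call lost without G3DM replicate 2. Atp5f1, the peripheral stalk subunit b, had 46.6, 31.3 and 25.9 in G5TM against 39.6, 36.1 and 31.8 in G5DM, which overlap (-0.08, limma adjusted p = 0.738). Of the 50-base words of Atp5l, subunit g, 84.8% occur in transcripts of other genes, so its values are uncertain. For Atp5f1 the share was 37.55% and for Atp5g2 38.35%, so their values carry the same limit. Atp5f1 also overlaps Wdr77 and Gm42890 on the other strand. Among other members with values given here, the share was 43.4% for Uqcrb, 32.05% for Cox5a and 26.2% for Ndufa12. It was 24.2% for Uqcrc2, 23.0% for Cox7c, 21.8% for Cox5b and lower in the rest. Over the tested members, 45 shared at least 1 such word with another gene and 33 with a pseudogene.

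Among DM libraries no member was called between generations. G3DM against G1DM called 0 of 80 with limma in either direction (0.214% of all genes were called, 0.184% higher and 0.0295% lower), with 4 at an unadjusted p under 0.05 and 0 with voom. With only these groups fitted, 51 members and 4059 of 13562 genes had an unadjusted p under 0.05 and 0 were called, and without G5DM replicate 1 the members were 23. These 4, chosen after their values were seen, were Ndufa12 (1.95 log2), Cox4i2 (0.78), Ndufv3 (0.69) and Cox6b2 (0.68). Both G3DM libraries nevertheless lay above both G1DM libraries for 66 of 80 members (36.5% of all genes) and below for 3 (26.5% of all genes), Atp5s, Ndufs1 and Ndufs4, at a median of 0.50 log2 against 0.09 for all genes. That median was 0.30 after quantile normalization and 0.25 after the removal of trends on GC content and length. G5DM against G1DM called 0 (0.0590% of all genes, 0.00737% higher and 0.0516% lower), with 1 at an unadjusted p under 0.05, Cox6b2 at 0.92, and 0 with voom. All G5DM libraries lay above both G1DM libraries for 2 members (6.32% of all genes), Cox6b2 and Ndufc1, and below for 0 (7.20% of all genes). G5DM against G3DM called 0 (4.98% of all genes, 3.35% higher and 1.64% lower), with 3 at an unadjusted p under 0.05, and 0 with voom. Those 3 were Cox4i2 (-0.90), Ndufa12 (-1.12) and Ndufs1 (0.39). The G5DM libraries lay above the G3DM libraries for 4 members (17.4% of all genes) and below for 2 (18.3% of all genes).

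One DM library decided much of this. G5DM replicate 1 lay above G5DM replicates 2 and 3 in 75 of 80 members, against 49.7% of all tested genes, with a median ratio of 1.94 to the mean of those 2. It was the highest of the 7 DM libraries in 66 members, against 25.1% of all genes. Its summed FPKM over the 85 genes was 4518, against 2495 and 2155 in replicates 2 and 3. It was also the G5DM library with Xist, while the other 2 had Y-linked genes, and the part of sex in this was not tested. Without it, G5DM against G3DM called 11 members, all lower in G5DM (7.79% of all genes were lower and 15.1% higher in that fit). G3DM against G1DM then called 2, both higher in G3DM, a share near the 2.43% of all genes. Without G3TM replicate 1, which enters only through the shared spread, G5DM against G3DM called 1. Among TM libraries, G3TM replicate 1 was the lowest of its group in 60 members (43.7% of all genes) and G5TM replicate 1 the highest of its group in 71 (33.2% of all genes).

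Within TM, 61 members were called higher in G3 than in G1 (25.2% of all genes were) and 62 in G5 than in G1 (26.0% of all genes were), with 0 lower in either (21.6% and 23.5% of all genes were). The medians were 1.39 and 1.48 log2, against 0.03 for all genes in both. Quantile normalization called 3 members lower in each, against 23.2% and 25.1% of all genes. Removing trends on GC content and length called 3 and 4 lower, against 15.0% and 17.2% of all genes, and gave medians of 0.75 and 0.81. These comparisons share the 2 G1TM libraries. Without G1TM replicate 1 the counts were 39 and 47. The later TM libraries lay above both G1TM libraries for 70 members in G3 (37.2% of all genes) and 73 in G5 (37.4% of all genes), and below for 3 (35.4% of all genes) and 2 (36.2% of all genes), among them Ndufa4l2 and Ndufs1 in both. The largest G5 rises were those of Atp5k (4.11), Ndufa3 (3.67) and Ndufa2 (3.44), with limma adjusted p of 1.86e-05, 7.44e-07 and 2.95e-05. Cox6a1 differed by 2.76 (limma adjusted p = 0.000176). G5TM against G3TM called 0 members with limma (0.0295% of all genes, 0.0221% higher and 0.00737% lower) and 0 with voom, with 2 at an unadjusted p under 0.05, Cox7b at 0.62 and Atp5j at 0.40. G5TM libraries lay above the G3TM libraries for 2 members (2.78% of all genes) and below for 0 (3.02% of all genes).

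The difference between TM and DM itself was larger in G3 than in G1 for 10 members (1.53% of all genes) and larger in G5 than in G1 for 37 (11.5% of all genes), by the interaction term of the limma fit. None was smaller (0.885% and 8.33% of all genes, or 2.42% and 19.8% called in either direction). Of the 37, 19 belong to complex I, 4 to III, 6 to IV and 8 to V, with none from complex II. Atp5k had interaction terms of 3.35 in G3 and 3.67 in G5, and Ndufa3 of 2.99 and 3.31. The counts moved with single libraries. In G3 the count was 2 without G3DM replicate 2, 3 without G1TM replicate 1, 4 without G1DM replicate 1, G1DM replicate 2, G1TM replicate 2 or G3DM replicate 1, 5 without G3TM replicate 3, 19 without G3TM replicate 1 and 24 without G5DM replicate 1. In G5 it was 11 without G1TM replicate 1, 20 without G1DM replicate 1 or G1TM replicate 2, 21 to 24 without G1DM replicate 2, G5DM replicate 2, G5DM replicate 3 or G5TM replicate 1, and 56 without G5DM replicate 1.

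The 13 mitochondrially encoded subunit genes moved opposite to the nuclear ones. Their summed FPKM was 2347 to 4129 in the 6 G3TM and G5TM libraries and 9854 to 13448 in the other 9. In G3, 13 of 13 were called lower in TM (13.9% of all genes were) and in G5 12 of 13 (28.4% of all genes were). In G1, 0 were called (1.17% of all genes in either direction). mt-Co1, a catalytic subunit of complex IV, averaged 1240 FPKM in G3TM against 4689 in G3DM and 1007 in G5TM against 4743 in G5DM. The ratio of the nuclear sum to the mitochondrial sum was 1.37 to 3.67 in the 6 libraries and 0.173 to 0.394 in the 9, without overlap. Mitochondrial mRNAs carry short polyA tails, so a polyA library counts them in a way that depends on the tail and the preparation.

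**Figure D4:**
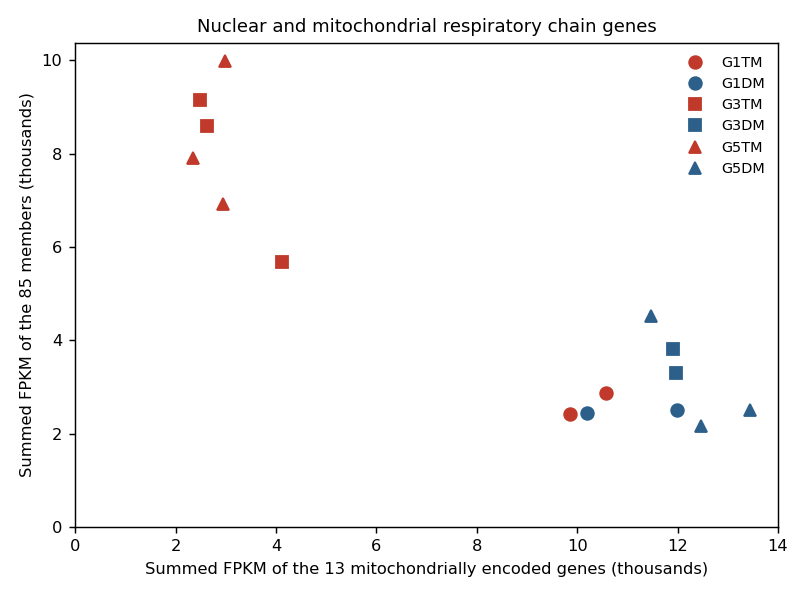
Summed FPKM of the 85 nuclear-encoded members against that of the 13 mitochondrially encoded subunit genes, both in units of 1000 FPKM, 1 point per library. The 6 G3TM and G5TM libraries lie at 5676 to 9989 and 2347 to 4129, apart from the other 9 at 2155 to 4518 and 9854 to 13448.

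Subunit mRNAs are short. The median transcript length of the 80 members (median of each gene's GENCODE vM21 protein-coding transcripts) was 671 bases, against 2177 for 11636 tested genes with such a transcript. Across all those genes the G5 difference fell with length (Spearman's rho -0.38 over genes, which are not independent) and rose with GC content (0.56), in the same libraries. Among the members rho with length was -0.23 and with GC content 0.21 (80 genes). Of members under 600 bases, 25 of 30 were called higher in G5, against 49.7% of all genes of that length. From 600 to 1000 bases it was 24 of 31 against 46.9%, and from 1000 bases 14 of 19 against 26.9%. In G1 the corresponding rho over all genes was -0.03 with length and -0.10 with GC content. Among the members in G1 rho was 0.42 with length, opposite in sign to that in G5, and -0.10 with GC content (80 genes). After the trends on GC content and length were removed from each library, a step chosen after seeing the data, 45 members were called higher and 4 lower in G3 (20.2% and 18.7% of all genes), and 55 higher and 5 lower in G5 (25.8% and 25.0% of all genes), at medians of 0.66 and 0.81.

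**Figure D5:**
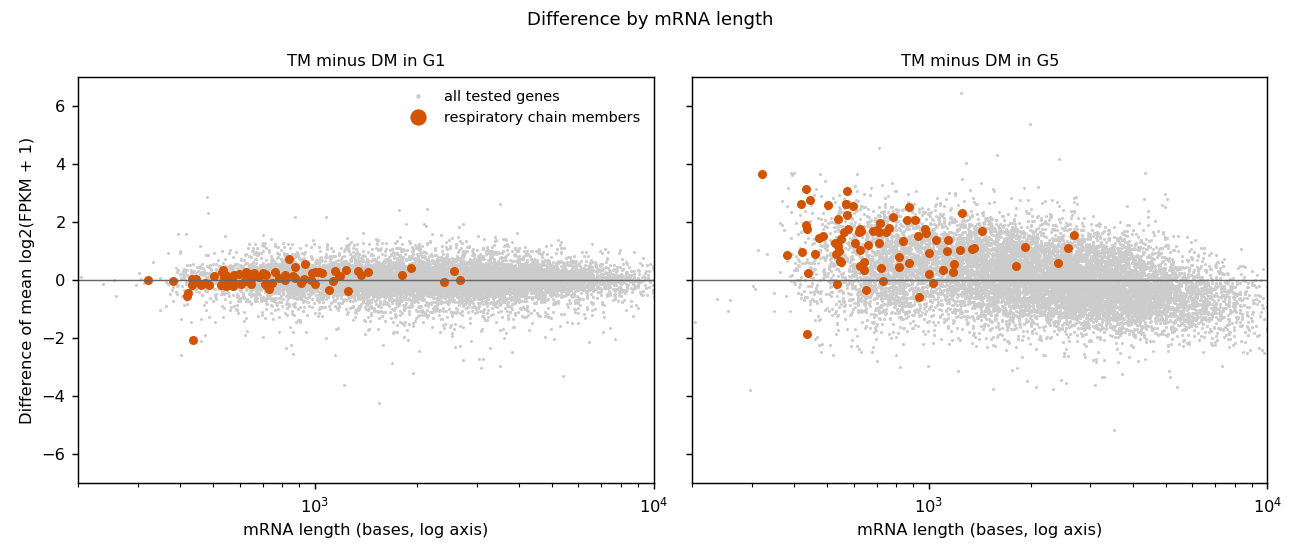
TM minus DM differences of log2(FPKM + 1) against mRNA length (log axis) in G1 and G5, with all tested genes in grey and the members in orange. In G5 the members lie mostly above 0, at a median of 1.32, over the whole range of their lengths.

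For the other genes of the pathway, counts are read against the 18.0% of all genes called higher and 13.9% lower in G3, and 30.3% and 28.4% in G5. Of 44 tested assembly factors, proteins that build the complexes without staying in them, 18 were called higher and 2 lower in G3, 28 higher and 3 lower in G5, and 0 in G1, at medians of 0.46, 0.67 and 0.11. Fmc1, an assembly factor of complex V, differed by 2.90 in G5 and Pet100, of complex IV, by 2.51 (limma adjusted p = 8.68e-06 and 2.9e-05). Among 5 subunits and associated proteins outside the naming rule, 3 were called higher in both G3 and G5. These were Cycs, cytochrome c itself, Cyc1, the cytochrome of complex III, and Higd1a, a small protein that associates with complex IV. Their G5 differences were 1.44, 1.87 and 1.92 log2. Of 14 tested regulators of respiratory genes and mitochondrial DNA, 1 was called higher and 0 lower in G3, under the shares of all genes. In G5, 5 were called higher and 3 lower, near those shares. Nrf1 differed by 0.62 in G3 and 0.64 in G5 (limma adjusted p = 0.012 and 0.00253), while Gabpa, the DNA-binding subunit of the ETS factor, averaged 3.45 FPKM in G5TM against 11.5 in G5DM (-1.40, limma adjusted p = 0.00167). In G3 its means were 3.58 in TM and 2.98 in DM. Gabpa overlaps Atp5j on the other strand, so reads of that pair cannot be told apart. Esrra, a nuclear receptor that acts on respiratory genes, differed by 1.01 in G5 (limma adjusted p = 0.00754).

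Enzymes of the citric acid cycle, which feeds the chain, had 0 of 12 called in G3 and 5 higher and 1 lower in G5, where 30.3% of all genes were higher and 28.4% lower. Mdh2, malate dehydrogenase, differed by 1.13, and Sucla2, a subunit of succinyl-CoA ligase, by -1.08 (limma adjusted p = 0.0097 and 0.00837). Of 12 hypoxia targets, 1 was called higher in G1 (0.361% of all genes were), 3 higher in G3, and 3 higher with 1 lower in G5. The share called higher was near that of all genes in G3 and G5, and in G1 it rested on 1 gene. Their median difference was 0.67 log2 in G1, 0.46 in G3 and 0.002 in G5, against 0.02, 0.01 and 0.02 for all genes. The G1 call was Egln3, an oxygen-sensing prolyl hydroxylase, which averaged 42.9 FPKM in G1TM against 11.2 in G1DM (1.82 ± 0.32, limma adjusted p = 0.0149). Ldha, lactate dehydrogenase A, differed by 1.53 in G5 (limma adjusted p = 0.00138).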

How the data were processed

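The authors deposited one table of FPKM for 54495 genes in 15 libraries, with gene names, biotypes, lengths and coordinates. Per the submitters' processing notes, which give no roles, DESeq2 1.20.0, featureCounts 1.5.0-p3, HISAT2 2.0.5, fastp and CASAVA 1.8 were used. A genome build is not given in the sources used here, but coordinates equalled GENCODE vM21 (GRCm38) for 98.1% of identifiers and 79 of 85 members. FPKM times gene length was a whole multiple of 1 step per library for 100% of values (tolerance 0.05), and the implied library size was 0.807 to 1.11 times the recovered reads, so the authors' scaling was not by that total.

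All 15 libraries entered one limma 3.58.1 fit (R 4.3.3) of log2(FPKM + 1) on 6 group means, with an intensity trend and two-sided tests, after a filter of FPKM at least 1 in at least 2 libraries (13562 genes). The script was tested on simulated data. Members and lists were chosen with earlier results of these data known. Named were core subunits, isoforms with their partners, the subunit c genes, and in each complex the 2 largest called changes in each direction among members whose mean FPKM reached 5 in a group. The values of 1 core subunit are not reported here. Others are said to be chosen after their values were seen, or illustrate a count. Python 3.11.15 (pandas 2.3.3, numpy 2.4.6, scipy 1.17.1, matplotlib 3.10.9) handled tables and figures. Alternatives were another pseudocount (0.1), other filters, quantile normalization, voom on recovered reads, fits of the compared groups alone, a replicate block, trend removal and leaving out each library.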

Additional observations from a re-analysis of the deposited data

Results flagged for a closer look

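The TM minus DM difference differed between generations by the interaction term of the limma fit. Against G1, 10 members were called in G3, among them Atp5k (3.35 log2), Ndufa3 (2.99) and Uqcr11 (2.34). Against G1, 37 members were called in G5, among them Atp5k (3.67), Ndufa3 (3.31), Ndufa2 (3.27), Uqcr11 (2.74), Cox6a1 (2.31) and Cox4i1 (1.75). The Uqcr11 term in G3 was lost in 16 of 23 alternatives (adjusted p of up to 0.209) and the Cox4i1 term in G5 in 15 of 23 (up to 0.18). Cox6a1 lost its term without G1TM replicate 1 (0.0689), and Atp5k its G3 term without G3DM replicate 2 (0.0506). G3TM and G5TM are the 6 libraries that stand apart, so these terms and that divide cannot be told apart.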

How the results depend on the processing

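Apart from leaving out libraries, counts of called members other than the following were within 1.5 times those reported. TM against DM in G1 called 0 with a mean FPKM of at least 5, a filter that removed Cox6b2, and 0 with only the groups compared. G5DM against G3DM called 1 after quantile normalization. The G3 interaction called 4 without a filter, 18 with only the groups compared and 6 with voom, and the G5 interaction 21 without a filter. Apart from that filter, the cause was not tested.

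Leaving out each library in turn gave 0 to 1 calls for TM against DM in G1, 23 to 55 in G3 and 56 to 72 in G5. Within DM it gave 0 to 2 for G3 against G1, 0 throughout for G5 against G1 and 0 to 11 for G5 against G3. Within TM it gave 39 to 68, 47 to 69 and 0 throughout, and for the interactions 2 to 24 and 11 to 56.

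Of 60 gene results under 1376 alternatives, 1268 kept direction and call, 107 lost the call and 1 reversed, Sdha in G5 at -0.185 after quantile normalization.

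Deviations from group means correlated at -0.541 to 0.378 in 33 same-numbered pairs of libraries, with 9 over 0.1. In 60 differently numbered pairs they correlated at -0.488 to 0.541, with 26 over 0.1. In a group of 2 libraries the deviations mirror each other, so this check cannot decide whether replicate numbers pair libraries. A replicate block called 1, 40 and 63 members for TM against DM in G1, G3 and G5, and 8 and 29 for the interactions.

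Groups of 2 or 3 libraries limit precision, and depth leaves as few as 4 reads for a tested member in a library.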
